A study of Homo sapiens with 15 samples.

Results

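The genes described here are those that the deposited tables carry only under a name ending in .primary. A name was taken when its .primary row was in the tables of both cell lines and its plain row, without that ending, was in neither. Names with a hyphen, names starting with LINC, ZNF, SNOR or RN7SL, and clone names were left out, which took 2083 names to 1013 of the 15990 names in the tables. The choice used the names only, although whether a name has a row may depend on a minimum level set by the authors. The labels do not say what .primary stands for. It may be read as a count over a gene's unspliced, primary transcript, but the values below are given for the row as named.

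RNA immunoprecipitation sequencing recovered the RNA that came down with a protein from fixed prostate cancer cells. The 22Rv1 line gave 9 libraries: Brg1 replicates A and B, Sfpq replicates A and B, IgG replicates A, B and C, and Input replicates A and B. The LNCaP line gave 6: Brg1, IgG and Input, each with replicates A and B. Both lines are established, were grown in RPMI1640 with serum, have no treatment named in the labels, and were fixed in formaldehyde before the immunoprecipitation. IgG is a non-specific antibody that measures background, and Input is RNA that was not precipitated, diluted toward the concentration of the strongest precipitate. The labels do not say whether replicates came from separate cultures, so p-values measure only the spread between these libraries, which may be technical.

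Brg1 is the ATPase encoded by SMARCA4 that drives the SWI/SNF chromatin remodelling complex, and Sfpq is a nuclear RNA-binding protein with roles in splicing and transcription. A gene is transcribed with its introns, and the introns are removed before the mature mRNA leaves the nucleus. Unspliced transcripts therefore lie mostly in the nucleus, close to the chromatin where Brg1 acts, and a gene that is transcribed weakly can show intron reads while its mature mRNA is scarce.

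Among the 1013 genes are 5 whose names mark them as microRNA hosts, and all 5 have the hairpin inside their RefSeq span. Their mature microRNAs are printed from RefSeq (GRCh38.p14), 5′ to 3′, with the seed, bases 2 to 8, in capitals, because the seed is what pairs with a target and shows whether the hosts carry related microRNAs.
hsa-miR-4300: uGGGAGCUggacuacuuc
hsa-miR-4527: uGGUCUGCaaagagaugacugu
hsa-miR-4713-5p: uUCUCCCAcuaccaggcuccca
hsa-miR-4713-3p: uGGGAUCCagacagugggagaa
hsa-miR-583: cAAAGAGGaaggucccauuac
hsa-miR-646: aAGCAGCUgccucugaggc
No seed was shared among them. They lie at chr11:81890751-81890768 on the minus strand in MIR4300HG, and on the plus strand at chr18:47380503-47380524 in MIR4527HG, at chr15:51242200-51242221 and chr15:51242233-51242254 in MIR4713HG, at chr5:96079153-96079173 in MIR583HG and at chr20:60308534-60308552 in MIR646HG. In all, 65 of the 999 genes with RefSeq coordinates held a microRNA hairpin, 77 hairpins in total, and 43 of the 65 held one on their own strand. For 13 of them, 4 of the 5 named hosts included, the RefSeq tables used gave no strand of the gene. HTR2C, a serotonin receptor gene, held the most, with 4.

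For 5 of the genes, whose values move together across libraries as described further on, the 100 bases before the start of transcription are printed to show whether their promoters look alike. They come from RefSeq (GRCh38.p14), 5′ to 3′ on the gene's strand. The start is that of the RefSeq promoter table: for IGSF8 it lies inside the gene's RefSeq span (chr1:160091339-160099468), so its window does too, while the other 4 windows adjoin the span. Capitals mark a match, on either strand, to the TATAAA box, to the CCAAT box or to the GC box GGGCGG.
TGFA: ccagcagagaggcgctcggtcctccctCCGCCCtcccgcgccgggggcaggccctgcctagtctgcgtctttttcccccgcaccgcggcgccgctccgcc
CDK15: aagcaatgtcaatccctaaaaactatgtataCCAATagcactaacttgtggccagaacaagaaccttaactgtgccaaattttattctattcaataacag
KCNH5: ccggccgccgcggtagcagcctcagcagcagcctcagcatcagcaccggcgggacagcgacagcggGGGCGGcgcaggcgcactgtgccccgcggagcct
GIMD1: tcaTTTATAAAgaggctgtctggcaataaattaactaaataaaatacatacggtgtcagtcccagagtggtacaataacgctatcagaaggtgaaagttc
IGSF8: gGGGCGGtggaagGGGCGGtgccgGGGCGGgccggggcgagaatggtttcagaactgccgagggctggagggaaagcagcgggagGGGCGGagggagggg
The windows are chr2:70553827-70553926 (minus), chr2:201806329-201806428 (plus), chr14:63045459-63045558 (minus), chr4:106368779-106368878 (minus) and chr1:160098620-160098719 (minus), in the order printed. Over 250 bases, GC content was 75.6% for TGFA, 74% for KCNH5 and 76% for IGSF8, but 32.4% for CDK15 and 30.4% for GIMD1. GGGCGG was found 9 times before IGSF8, 3 times before TGFA and 1 time before KCNH5, and 0 times before the other 2. Over the same 250 bases, the longest run of letters shared by any pair of these genes was 10 bases on the same strand and 13 on opposite strands.

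A promoter of 250 bases was matched for 724 of the 1013 genes. Its median GC content was 62.8%, against 66% for 5525 genes with both a plain and a .primary row and 57.6% for all 27305 RefSeq promoters. At least 10 CpG were found in 66.9%, against 90.8% and 51.7%. On either strand TATAAA was found in 7.87%, against 4.04% and 11.2%, GGGCGG in 55.2%, against 71.4% and 42.2%, and CCAAT in 30.7%, against 35.8% and 33.0%. By these letters the promoters lie between those of genes with both rows and the whole set, except for CCAAT, which is least frequent among them.

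Recovered reads ran from 490879 to 47871438 per library in 22Rv1 and from 22184 to 7506724 in LNCaP, where the 2 shallowest are the IgG libraries. The median gene of the 1013 had 864 and 766 reads in the 22Rv1 Brg1 libraries and 460 and 138 in Input, but 81, 5 and 4 in the IgG libraries. In LNCaP it had 67 and 87 reads in Brg1, 60 and 55 in Input, and 0 and 1 in IgG. Of 8 prostate markers used to check the cells, all 8 had a plain row in LNCaP (149.7 to 1057 RPM, defined below, in Input) and 4 had one in 22Rv1 (15.4 to 35.8). No blood or endothelial marker had a plain row in either line, and 1 of 2 fibroblast markers did, at 18.8 and 19.5 RPM. Values below are RPM (a row's share of all recovered reads of its library, scaled as parts in 1000000), so a gene's higher share and lower shares of other genes cannot be told apart.

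Of the 1013 genes 999 matched RefSeq: 880 were protein-coding (86.9%), 88 were pseudogenes, 61 of them transcribed, and 31 were long noncoding RNAs. They were long. Their median span was 102 kb, against 42.7 kb for 6635 genes with both rows and 7.92 kb for 1581 genes with only a plain row. Over 100 kb were 50.6%, against 21.7% of genes with both rows, and over 500 kb were 11%, against 1.04%. The longest were RBFOX1, a splicing regulator of neurons and muscle, at 2474 kb (chr16:5239721-7713340), DLG2, a postsynaptic scaffold, at 2173 kb (chr11:83455012-85628373), and DAB1, an adaptor of reelin signalling, at 1552 kb (chr1:56994778-58546726). Spans and positions are RefSeq's (GRCh38.p14), and the authors' gene models are not given in the sources used here.

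They were also weakly read before precipitation. The median Input level was 9.05 RPM in 22Rv1 and 7.88 RPM in LNCaP, against 26.0 and 23.6 RPM for the .primary rows of genes with both rows. Between the lines 785 of the 1013 lay within 2-fold, 25 were over 4-fold higher in LNCaP and 32 over 4-fold higher in 22Rv1, while the rank order was shared in part (Spearman 0.548 across the genes, which share the same libraries). NRG3, a neuregulin ligand of ERBB4, had 22.4 and 17.0 RPM in 22Rv1 Input and 236 and 190 in LNCaP Input. ST6GALNAC3, a sialyltransferase, went the other way, with 132 and 115 RPM in 22Rv1 and 13.8 and 11.5 in LNCaP. Per kilobase of span the order of levels was led by short genes: TAS2R14, a bitter taste receptor, had 103 RPM per kb in 22Rv1 Input and 90.3 in LNCaP, and KCNQ5, a potassium channel, 0.231 and 0.041. The deposited tables hold no row with a low mean: the lowest row mean, in deposited units, was 76.1 for plain and 15.9 for .primary rows of 22Rv1, and 33.2 and 34.2 in LNCaP.

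The 1013 genes took a larger share of all reads in Brg1 than in Input in both lines. In 22Rv1 they took 3.63% and 3.39% of reads in Brg1, 1.57% and 1.43% in Input, 1.56% and 1.81% in Sfpq and 5.28%, 3.97% and 2.81% in IgG. In LNCaP they took 2.20% and 2.54% in Brg1, 1.76% and 1.53% in Input, and 6.05% and 11.9% in IgG. Both Brg1 libraries were above both Input libraries in each line, the 22Rv1 Sfpq and Input libraries overlapped, and IgG spanned the Brg1 values in 22Rv1. All .primary rows together took 65.7% and 62.7% of reads in 22Rv1 Brg1, 38.2% and 34.8% in Input, 27.5% and 33.4% in Sfpq and 62.5%, 59.5% and 39.1% in IgG. In LNCaP they took 50.8% and 60.5% in Brg1, 42.3% and 35.2% in Input and 66.9% and 66.8% in IgG. As with the 1013 genes, Brg1 and IgG were above Input, but Sfpq lay below both Input libraries. Of .primary reads alone, the 1013 genes took 5.53% and 5.41% in 22Rv1 Brg1, 5.68% and 5.42% in Sfpq and 4.11% and 4.10% in Input. In LNCaP they took 4.32% and 4.19% in Brg1 and 4.15% and 4.34% in Input. By that share Sfpq was above Input in 22Rv1, as Brg1 was, and Brg1 and Input overlapped in LNCaP.

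Single genes carried much of the IgG share. FAM81B took 17.6% of the reads of the 1013 genes in 22Rv1 IgG replicate A, where it stood at 9296 RPM against 6.28 in replicate B and 26.5 in replicate C. BMS1P14, a transcribed pseudogene, took 23.3% in LNCaP IgG replicate B, and without it the share there was 9.16%. Without the 10 most-read of the genes in each library, the share was 3.12% and 2.93% in 22Rv1 Brg1, 1.41% and 1.28% in Input, 1.28% and 1.51% in Sfpq, and 3.33%, 2.94% and 1.61% in IgG. In LNCaP it was 1.64% and 1.97% in Brg1 and 1.26% and 1.05% in Input. Brg1 stayed above Input in both lines when those genes were left out, as the plot of shares shows.

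**Figure D1:**
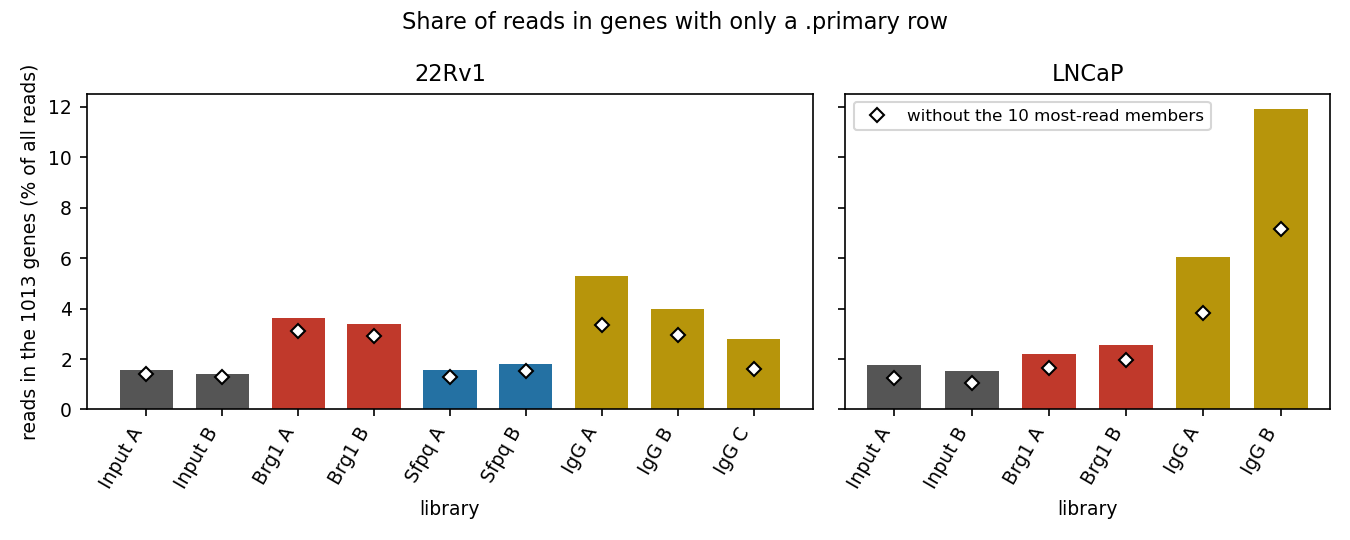
Share of reads in the 1013 genes, in percent of all reads, by library, for 22Rv1 (left) and LNCaP (right), with a diamond for the share without the 10 most-read of them. Brg1 bars (3.63% and 3.39%, 2.20% and 2.54%) stand above Input bars (1.57% and 1.43%, 1.76% and 1.53%), and IgG bars vary most.

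Gene by gene, most of them were higher in Brg1 than in Input of 22Rv1. The median log2 fold change of RPM (with 1 added to each value) was 1.07, with quartiles of 0.56 and 1.44, against 0.27 for the .primary rows of genes with both rows, 0.53 for all .primary rows and -0.25 for all rows. Both Brg1 libraries were above both Input libraries for 862 genes and below both for 51, while over all rows 35.0% were above and 50.9% below. Among all .primary rows 63.2% were above and 19.1% below, and among genes with both rows 54.3% and 25.8%. The direction of the median was the same on the authors' deposited scale (0.76, against -0.69 for all rows), after TMM scaling (1.24) and as a share of .primary reads alone (0.35). The excess over genes with both rows held on each of these scales, since those genes stood at 0.27, -0.13, 0.47 and -0.51 in the same order.

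The test with all 22Rv1 groups in a fit called none of the 1013 in Brg1 against Input. Over all rows limma called 0.0799% (adjusted p under 0.05). By edgeR 0 of the 1013 were called too, and DESeq2 called 18, all higher, beside 271 higher and 231 lower of all 22542 rows. An unadjusted limma p under 0.05 was reached by 99 of the 1013, beside 2125 of all rows, a similar share. The spread in that fit includes the shallow IgG libraries. With only the Brg1 and Input libraries in the fit, limma called 769 higher and 30 lower, against 29.3% and 42.2% of all rows, and edgeR with TMM called 820 and 16. Of all 11687 .primary rows the same limma fit called 6318 higher and 1325 lower. In the fit of all groups the count was 77 without IgG replicate C, beside 877 higher and 529 lower of all rows. It was 31 without IgG replicate A, beside 375 and 303 of all rows, and 25 without IgG replicate B, beside 335 and 291. Below, a gene is said to be called in the pair fit when it passed in limma with only the 2 groups compared.

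In LNCaP the same direction was seen at about the same Input level, with a smaller difference. The median log2 fold change was 0.58, with quartiles of 0.24 and 0.87, against 0.02 for genes with both rows, 0.18 for all .primary rows and -0.08 for all rows. It was 0.64 after TMM scaling and 0.13 as a share of .primary reads. On the deposited scale, where Brg1 values as a whole lie below Input, it was -0.71 against -1.46 for all rows, so the direction for LNCaP is relative to the library and not absolute. The libraries did not overlap for 704 genes that were higher and 71 that were lower in Brg1, against 28.5% and 35.7% of all rows. Among all .primary rows these shares were 42.0% and 22.2%.

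The LNCaP fit of all groups called 1 of the 1013 (limma, against 0.0947% of all rows), and the pair fit called 358 higher and 26 lower, against 13.0% and 14.0% of all rows. Of all 11451 .primary rows the pair fit called 2658 higher and 945 lower. In the fit of all groups the count was 424 without IgG replicate A, beside 2980 higher and 3101 lower of all rows. It was 406 without IgG replicate B, beside 2963 and 3093 of all rows. It was 45 without Brg1 replicate A, beside 235 and 411, and 0 without either Input library. The called gene was CEP164P1, a pseudogene copy of the centrosomal gene CEP164, at chr10:45070765-45071268. It had 16.8 and 18 RPM in LNCaP Brg1 and 2.55 and 2.53 in Input. Its log2 fold change was 2.38 (SE 0.09, limma adjusted p 0.0165), and it lost the call without either Input replicate or with the replicate block. In 22Rv1 it had 14.4 and 12.9 RPM in Brg1 and 2.72 and 2.18 in Input, also without overlap.

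Both lines showed the same direction for most of the genes. Brg1 was above Input without overlap in both lines for 686 of the 1013 (67.7%), against 22.0% of 19400 rows present in both tables. It was below in both for 27 (2.67%), against 31.0% of those rows, and the lines went opposite ways for 20 genes, 17 of them higher in 22Rv1 and 3 higher in LNCaP. Spearman's rho between fold changes in 22Rv1 and LNCaP was 0.698 over the 1013 genes and 0.772 over all shared rows, a description of rows that share libraries. The plot of fold changes by set shows the shift of the whole distribution.

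**Figure D2:**
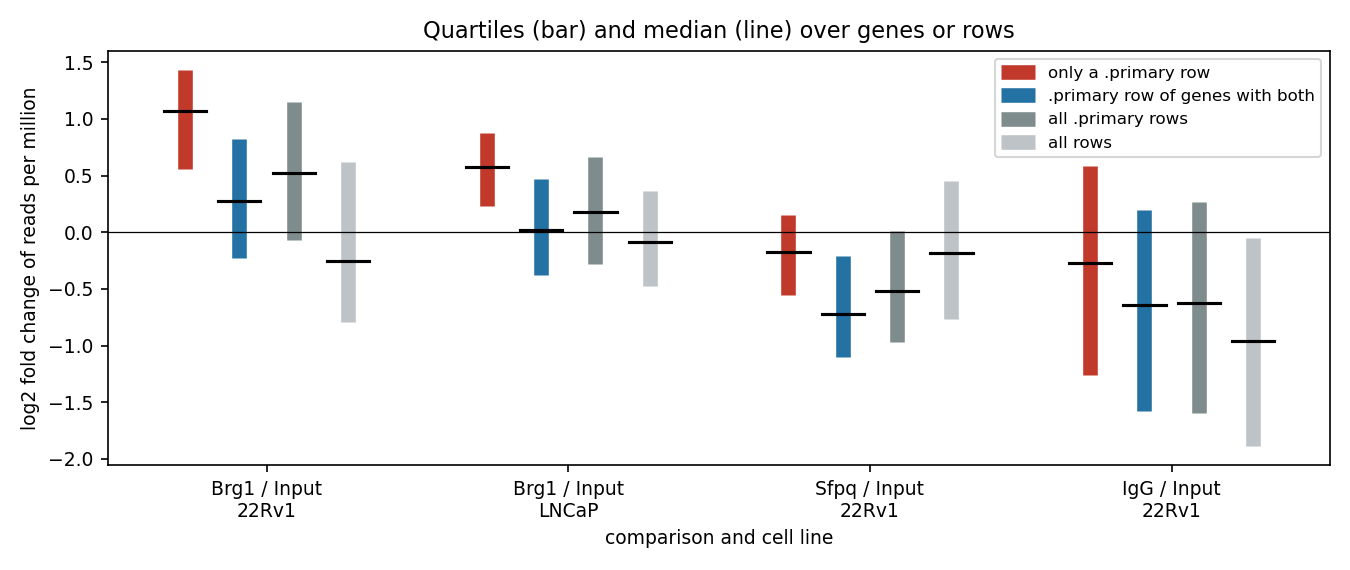
Log2 fold change of RPM against Input, for Brg1, Sfpq and IgG of 22Rv1 and Brg1 of LNCaP, with a thick bar from the lower to the upper quartile and a black line at the median for each set of rows. The 1013 genes have higher medians than the other sets in Brg1 (1.07 and 0.58), and on the deposited scale the LNCaP median turns to -0.71.

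The difference did not depend strongly on the Input level. In quartile groups of increasing 22Rv1 Input, cut at 5.54, 9.05 and 15.2 RPM, the median log2 fold change in Brg1 was 1.10, 1.02, 0.97 and 1.20. Genes with both rows had 0.80, 0.17, 0.08 and 0.31 within the same cuts. Since Input enters both the quartile group and the fold change, the quartile groups were also drawn by the Input of LNCaP, and then gave 1.19, 1.01, 0.86 and 1.09. In LNCaP, cut at 5.28, 7.88 and 14.1 RPM, the medians were 0.69, 0.49, 0.50 and 0.59, against 0.41, -0.08, -0.12 and 0.05 for genes with both rows. The gap between the sets was thus narrowest in the lowest quartile group in both lines.

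In the top Input quartile group, 254 genes with enough reads to be seen in most libraries, the median level was 56.2 and 52.8 RPM in 22Rv1 Brg1, 24.0 to 25.9 in Input, 21.2 and 24.8 in Sfpq and 52.9, 50.8 and 30.6 in IgG. Brg1 and IgG replicates A and B were therefore close to each other there, and both were above Input and Sfpq. Of these 254, 214 and 213 (84.3% and 83.9%) stood above every Input library in the Brg1 replicates, beside 38.4% and 38.1% of all rows and 68.4% and 67.0% of all .primary rows. In the IgG replicates 179, 147 and 117 did (70.5%, 57.9% and 46.1%), beside 36.1%, 31.0% and 39.2% of all rows and 48.7%, 37.2% and 36.1% of all .primary rows. In LNCaP the top quartile group had 29.1 and 34.9 RPM in Brg1 and 18.6 to 22.0 in Input.

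Longer genes stood higher in Brg1. In quartile groups of span, cut at 30.6, 102 and 280 kb, the median log2 fold change against Input in 22Rv1 was 0.47, 0.92, 1.26 and 1.24, and Brg1 was above Input without overlap for 61.2%, 83.9%, 97.2% and 98.4% of genes. In LNCaP the medians were 0.26, 0.50, 0.65 and 0.68, and -1.05, -0.82, -0.63 and -0.62 on the deposited scale. Scaled to .primary reads alone, the shortest group lay below Input, with medians of -0.27 (22Rv1) and -0.20 (LNCaP), and the longest stayed above it, with 0.51 and 0.22. Median Input levels of the quartile groups were close together in 22Rv1, at 8.61, 9.49, 8.64 and 9.27 RPM. Genes with both rows showed the same order, with -0.07, 0.30, 0.83 and 1.37 in 22Rv1 and -0.20, 0.03, 0.41 and 0.81 in LNCaP. The gap between the sets was wider in the shorter pair of groups than in the third, and in the longest group the medians of genes with both rows were the higher.

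Sfpq showed no such order, with -0.09, -0.32, -0.17 and -0.13 over the same quartile groups of span. IgG of 22Rv1 did, with -1.25, -0.72, 0.04 and 0.47. By library, the longest quartile group stood above the shortest by 0.84 and 0.78 in 22Rv1 Brg1, by 2.13, 2.37 and 0.89 in the IgG libraries (A, B, C), by -0.02 and 0.01 in Sfpq, and by 0.42 and 0.41 in LNCaP Brg1. Across the genes the Spearman correlation of span with fold change was 0.45 for Brg1 and 0.48 for IgG in 22Rv1, 0.30 for Brg1 in LNCaP and 0.02 for Sfpq, over 999 genes that share the same libraries. A long span thus went with a higher share in both Brg1 and non-specific IgG, and the part of background in the Brg1 values was not tested.

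**Figure D3:**
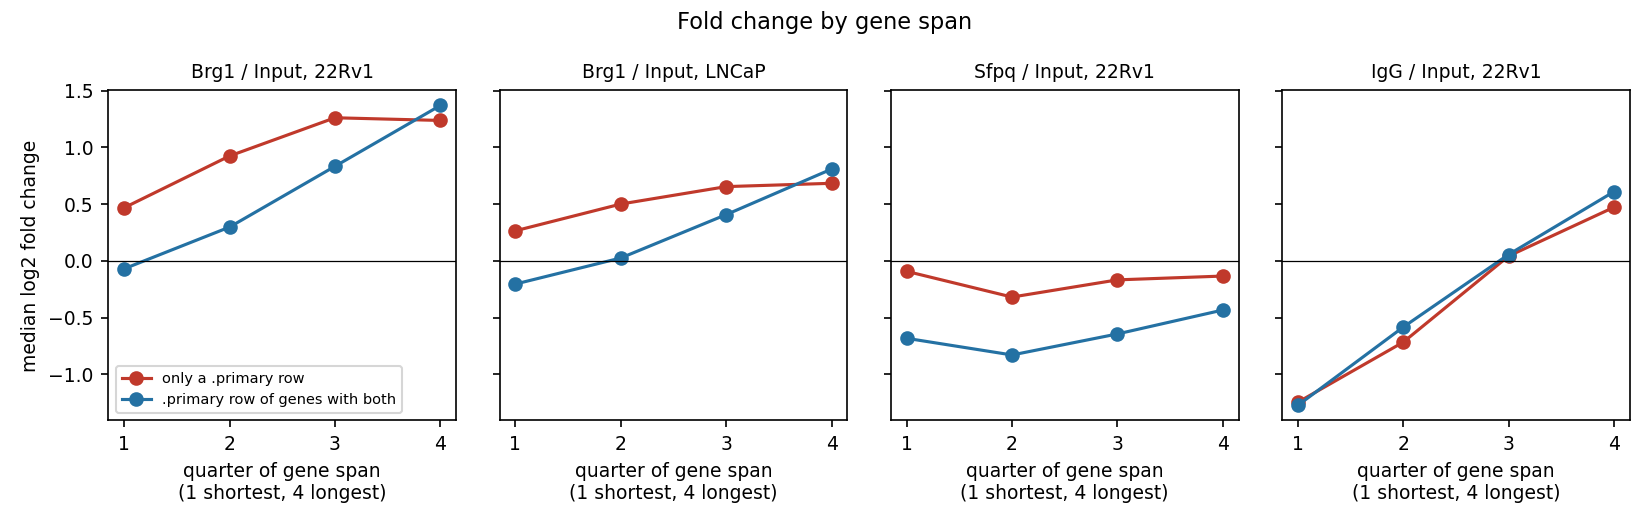
Median log2 fold change against Input (y) by quartile group of gene span (x, shortest to longest), for the 1013 genes and for genes with both rows, in 1 panel per comparison. Brg1 and 22Rv1 IgG rise with span, from 0.47 to 1.24 in 22Rv1 Brg1 and from -1.25 to 0.47 in IgG, and Sfpq stays between -0.32 and -0.09. On the deposited scale the LNCaP medians are below 0 and keep their order from the shortest to the longest quartile group.

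Gene type went with the difference too. In 22Rv1 Brg1 the median was 1.11 for the 880 protein-coding genes, 0.96 for the 31 long noncoding RNAs and 0.54 for the 88 pseudogenes, of which 59 were higher and 8 lower without overlap. In LNCaP it was 0.61, 0.55 and 0.26. Pseudogenes and recently duplicated genes share near-identical sequence with their copies, so their counts depend on how the authors' counting split reads, and values of BMS1P14, TEKT4P2, STAG3L1, TRIM74, CBWD4P, FAM86EP, CCT6P1, SMG1P6, NPIPB6, MRPS31P4, MRPS31P5 and RPS11P6 are uncertain for that reason.

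The counts of gene lists that follow are to be read against all 1013 genes. In 22Rv1 Brg1 85.1% of these were higher and 5.03% lower without overlap (median 1.07), and in LNCaP 69.5% and 7.01% (median 0.58, and -0.71 on the deposited scale). Most lists were close to these shares, no list was tested against them, and nothing is particular to a list by its count. Of the 1013 the pair fit called 769 higher and 30 lower in 22Rv1, beside 29.3% and 42.2% of all rows. In LNCaP it called 358 and 26, beside 13.0% and 14.0%. In LNCaP, limma with all groups called Brg1 lower than IgG for some genes below, among them KCNQ5, MDGA2, CDH4, CDH13 and MIR4713HG. Others, among them FGF12 and IL3RA, were called higher with 0 reads in IgG.

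Receptors for neurotransmitters made up 26 of the 1013 genes by name, while 4 such genes had both rows. Brg1 was above Input without overlap for 25 in 22Rv1 (median 1.24), beside 85.1% of the 1013 and 35.0% of all rows, and for 23 in LNCaP (median 0.67, and -0.65 on the deposited scale), where these shares were 69.5% and 28.5%, and below for none. The pair fit (limma) called 24 and 14 of them higher and 0 lower, and the fit of all groups called 0. These lists, like the genes, were chosen with earlier results of the data known.

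GRIK2, a kainate receptor subunit, had 57.4 and 54.6 RPM in 22Rv1 Brg1, 19.5 and 13.6 in Input and 94.3, 4.00 and 46.9 in IgG, whose libraries spread on both sides of Brg1. GLRA2, a glycine receptor subunit (chrX:14448779-14731812), was among the genes with the largest differences. It had 103 and 95.4 RPM in 22Rv1 Brg1, 17.8 and 20.5 in Input, 18.8 and 14.7 in Sfpq, and 51.1, 49.7 and 30.6 in IgG. Brg1 was above every other library of the line. Its log2 fold change was 2.31 against Input (SE 0.50, limma adjusted p 0.15) and 2.5 against Sfpq (SE 0.50, limma adjusted p 0.0444), the latter past the threshold. LNCaP levels were low, 7.85 and 7.80 RPM in Brg1 and 3.54 and 3.20 in Input.

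Ion channel genes numbered 29, of which 26 were higher and 2 lower without overlap in 22Rv1 Brg1 (median 1.18), near the 85.1% and 1.07 of all 1013, and 24 and 1 in LNCaP (median 0.58, and -0.70 on the deposited scale). The pair fit of limma called 24 up and 2 down for 22Rv1, and for LNCaP 10 up and 1 down. KCNQ5, a subunit of the M-type potassium channel (chr6:72622064-73198853), had 586 and 480 RPM in 22Rv1 Brg1, 135 and 132 in Input, 97.2 and 101 in Sfpq and 522, 420 and 120 in IgG. Brg1 stood above Input and Sfpq, and IgG replicate A above Brg1 replicate B. Its log2 fold change was 1.99 (SE 0.61, limma adjusted p 0.282 with all groups and 9.61e-09 in the pair fit). LNCaP libraries had 59.7 and 66.1 RPM in Brg1, 24.4 and 22.8 in Input and, at 5 and 24 reads, 225 and 518 in IgG. The log2 fold change of Brg1 there was 1.38 against Input (limma adjusted p 3.34e-06 in the pair fit). Against IgG it was -2.43 (limma adjusted p 0.0235 with all groups). A different channel gene, KCNH5, did not have Brg1 above Input without overlap in either line and is described with TGFA.

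Adhesion molecules of synapses and axons numbered 18, with 16 higher and 1 lower without overlap in 22Rv1 Brg1 (median 1.27), beside 85.1% and 5.03% of the 1013, and 15 and 0 in LNCaP (median 0.59, and -0.67 on the deposited scale). The gene that was lower is IGSF8. MDGA2, a membrane-anchored partner of neuroligins, had 220 and 188 RPM in 22Rv1 Brg1, 52.4 and 43.3 in Input, 52.1 and 49.0 in Sfpq and 165, 196 and 61.1 in IgG. Its log2 fold change against Input was 2.07 (SE 0.54, limma adjusted p 0.197, and 1.12e-08 in the pair fit). All 4 cadherin genes, CDH4, CDH8, CDH13 and CDH18, were higher without overlap in 22Rv1 Brg1 (median 1.38) and 3 in LNCaP (median 0.60, and -0.73 on the deposited scale). CDH4 had 115 and 123 RPM in 22Rv1 Brg1 and 31.8 and 28.1 in Input, and CDH13 21.3 and 22.4 against 15 and 11. In IgG, CDH4 had 34.8, 219 and 36.7 RPM and CDH13 19.0, 42.8 and 4.07, so IgG replicate B was above both Brg1 libraries for each.

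Of 9 axon guidance genes all 9 were higher without overlap in 22Rv1 Brg1 (median 1.27) and 7 in LNCaP (median 0.61, and -0.63 on the deposited scale). DCC, the netrin receptor, had 25.6 and 25.2 RPM in 22Rv1 Brg1 against 11.4 and 10.1 in Input, and in LNCaP its libraries overlapped, with 20.3 and 22.4 against 20.4 and 13.9. NTNG1, a membrane-bound netrin, was the higher in LNCaP, with 55.1 and 54.9 RPM in Brg1 against 28.1 and 24.4 in Input. The pair fit of limma called all 9 higher in 22Rv1 and 4 in LNCaP.

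Kinases, phosphodiesterases and growth factors of cyclic nucleotide and receptor tyrosine signalling numbered 17, and all 17 were higher without overlap in Brg1 in each line (medians 1.25 and 0.57, the latter -0.74 on the deposited scale). The list holds 1 pseudogene, PRKXP1. ERBB4, the neuregulin receptor (chr2:211375717-212538802), had 192 and 172 RPM in 22Rv1 Brg1, 55.4 and 47.8 in Input, 44.5 and 44.6 in Sfpq and 156, 108 and 95.7 in IgG. The groups did not overlap, with Brg1 highest and Sfpq lowest. Its log2 fold change was 1.80 against Input (SE 0.36, limma adjusted p 0.132, and 1.97e-08 in the pair fit) and 2.0 against Sfpq (SE 0.36, limma adjusted p 0.0349). LNCaP libraries had 19.9 and 26.4 RPM in Brg1, 13.5 and 13.1 in Input and, at 1 and 12 reads, 45.1 and 259 in IgG. NRG3, which encodes a ligand of ERBB4, had 56.0 and 53.2 RPM in 22Rv1 Brg1 and 419 and 486 in LNCaP Brg1, in both lines above Input, and 34.8, 59.95 and 10.2 in 22Rv1 IgG. FGF12, an intracellular member of the fibroblast growth factor family, had 63.9 and 50.8 RPM in 22Rv1 Brg1 against 18.8 and 17.4 in Input and 27.8, 67.4 and 30.6 in IgG. For both genes IgG replicate B was above Brg1.

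**Figure D4:**
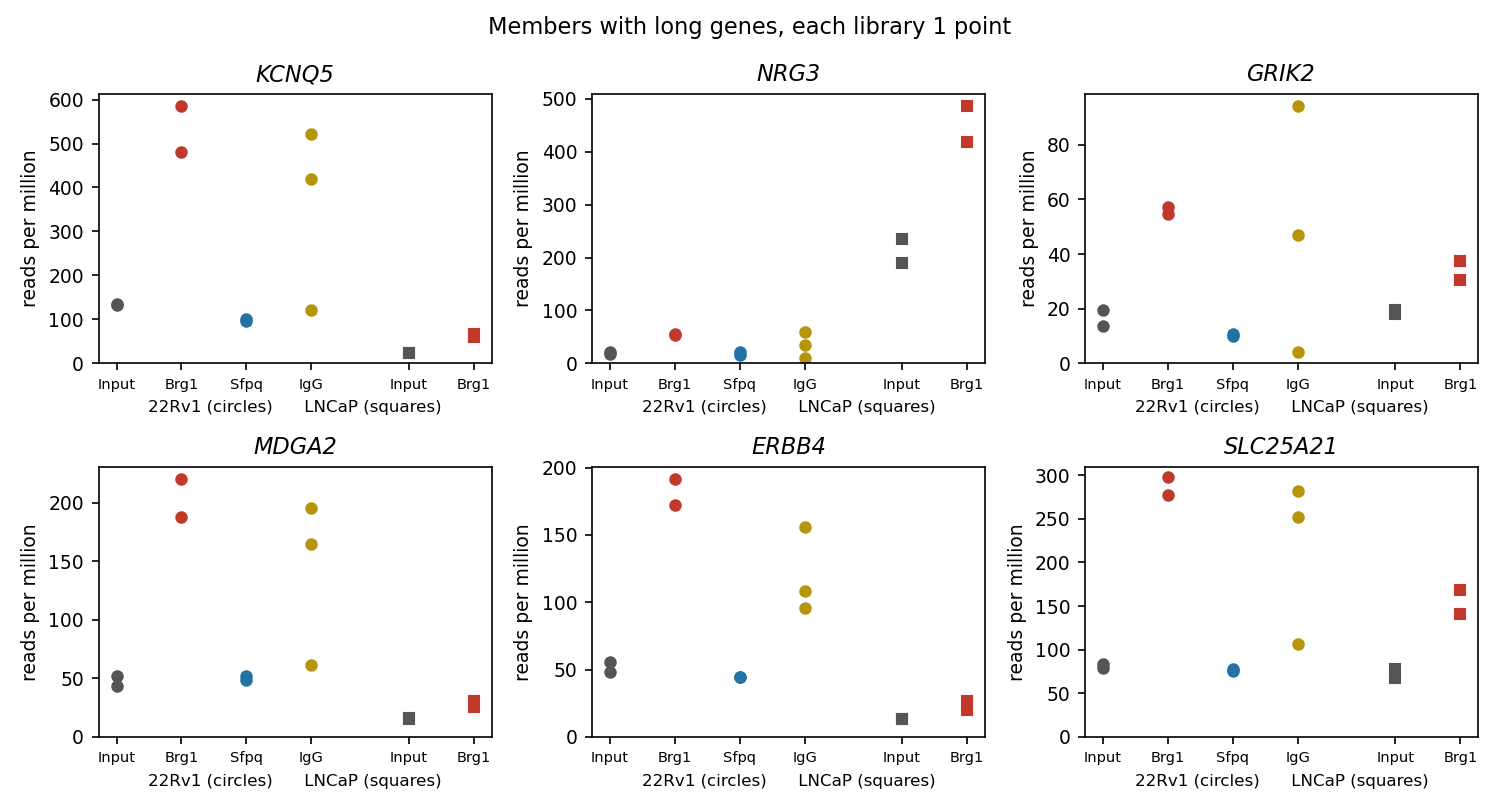
RPM (y, linear, from 0) of long genes among the 1013, with 1 point per library, circles for 22Rv1 (Input, Brg1, Sfpq, IgG) and squares for LNCaP (Input, Brg1). KCNQ5 Brg1 points of 22Rv1 lie at 586 and 480 and Input points at 135 and 132, with IgG points spread between 120 and 522.

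Solute carriers, the membrane transporters, numbered 30, with 25 higher and 3 lower without overlap in 22Rv1 Brg1 (median 0.96), beside 85.1% and 5.03% of the 1013, and 22 and 2 in LNCaP (median 0.76, and -0.52 on the deposited scale). They were mostly below Input in Sfpq, 21 lower and 3 higher without overlap (median -0.48), against 47.3% and 33.2% of all rows. The shares were 62.7% and 16.9% for all .primary rows (median -0.52) and 42.7% and 21.1% for the 1013 (median -0.18). SLC25A21, a mitochondrial carrier of oxodicarboxylates, had 298 and 277 RPM in 22Rv1 Brg1, 83.3 and 79.3 in Input and 252, 282 and 106 in IgG, where replicate B lay above Brg1 replicate B. Brg1 was 1.81 above Input on the log2 scale (SE 0.46, limma adjusted p 0.189). SLC16A4, of the monocarboxylate transporter family, showed little difference in Brg1, 75.6 and 73.0 RPM against 67.6 and 63.0, and was low in Sfpq, 19.9 and 20.7. SLC5A4 is unstable between replicates and cannot be read, with 43.9 and 0.199 RPM in 22Rv1 Brg1.

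Matrix proteins and their proteases numbered 19, with 17 higher and 1 lower without overlap in 22Rv1 Brg1 (median 1.15), near the 85.1% of all 1013, and 14 and 1 in LNCaP (median 0.65, and -0.62 on the deposited scale). COL24A1, a fibrillar collagen gene, had 31.6 and 31.2 RPM in 22Rv1 Brg1 and 14.0 and 11.3 in Input, while COL26A1 had 26.1 and 26.8 against 25.8 and 22.4. IgG had 31.9, 6.85 and 20.4 RPM of COL24A1 and 15.1, 70.2 and 14.3 of COL26A1. Of 7 orphan and taste receptors of the G-protein-coupled class 6 were higher in 22Rv1 and 5 in LNCaP, where 1 was lower (medians 1.41 and 0.95, the latter -0.37 on the deposited scale). TAS2R14 had 724 and 629 RPM in 22Rv1 Brg1, 208 and 174 in Input, 143 and 165 in Sfpq and 597, 569 and 196 in IgG. The LNCaP libraries had 373 and 401 RPM in Brg1 and 182 and 153 in Input. Its log2 fold changes were 1.82 (SE 0.51, limma adjusted p 0.233) and 1.21 (SE 0.19, limma adjusted p 0.123).

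Developmental transcription factors numbered 9 by name, 8 of them higher without overlap in 22Rv1 Brg1 (median 1.41) and all 9 in LNCaP (median 0.85, and -0.42 on the deposited scale). TBXAS1 is in the list by its letters only and encodes thromboxane synthase. GLIS1, a zinc finger factor, had 89.1 and 93.4 RPM in 22Rv1 Brg1, 27.3 and 24.1 in Input, 44.4 and 52.2 in Sfpq and 19.9, 21.7 and 42.8 in IgG. Here Brg1 was above every other library of the line, IgG included. The 5 microRNA hosts were all higher in 22Rv1 Brg1 (median 1.61) and 4 in LNCaP (median 0.60, and -0.68 on the deposited scale). MIR4713HG had 330 and 328 RPM in 22Rv1 Brg1, 77.6 and 90.1 in Input, 69.1 and 117 in Sfpq and 321, 212 and 102 in IgG. MIR4300HG had 45.4 and 40.01 in Brg1, 14.7 and 12 in Input and 35.7, 93.6 and 4.07 in IgG, whose replicate B was above Brg1. The reads are of the host row, and levels of the mature microRNAs printed above were not measured.

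Cilia genes numbered 19, with 16 higher and 1 lower in 22Rv1 Brg1 (median 0.81), near the 85.1% of all 1013, and 10 and 1 in LNCaP (median 0.57, and -0.73 on the deposited scale). RSPH14, a component of the radial spoke, had 187 and 193 RPM in 22Rv1 Brg1, 38.9 and 39.0 in Input, 78.7 and 97.7 in Sfpq and 111, 81.1 and 102 in IgG. Every antibody was above Input for this gene. Its log2 fold change in Brg1 was 2.26 (SE 0.33, limma adjusted p 0.0666), the smallest adjusted p of the named genes in that comparison, and in IgG 1.30 (SE 0.30, limma adjusted p 0.03). In LNCaP it had 57.8 and 63.8 RPM in Brg1 and 15.3 and 13.1 in Input.

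The lists with the smallest differences hold other kinds of genes. Of 10 immune genes by name, 1 of them the pseudogene IL9RP3, 8 were higher and 1 lower without overlap in 22Rv1 Brg1 (median 0.72, and -0.01 as a share of .primary reads) and 3 and 2 in LNCaP (median 0.28, -0.21 as a share of .primary reads and -1.06 on the deposited scale). IL3RA, a receptor chain for interleukin 3, was lower in Brg1 of each line, with 27.1 and 22.9 RPM against 54.4 and 42.8 in 22Rv1 and 7.85 and 6.64 against 14.6 and 9.32 in LNCaP. Of 5 genes of the cytochrome P450 and steroid enzyme list 2 were higher and 0 lower in 22Rv1 (median 0.21, -0.54 as a share of .primary reads and -0.19 on the deposited scale), and 2 and 2 in LNCaP (median -0.33). Of 4 ribosomal protein genes and copies 3 were higher and 1 lower in 22Rv1 (median 0.44, and -0.33 as a share of .primary reads), and 1 and 1 in LNCaP (median 0.20, and -1.14 on the deposited scale). No cancer-testis, histone or keratin gene of the lists was among the 1013.

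Among the largest differences in Brg1, beside those of GLRA2 and SLC5A4 named above, were genes outside these lists. TMEM204, a membrane protein of cell junctions, had 85.7 and 92.4 RPM in 22Rv1 Brg1, 12.6 and 12.5 in Input, 33.8 and 46.5 in Sfpq and 56.7, 2.28 and 42.8 in IgG. In LNCaP it had 56.1 and 75.4 RPM in Brg1 and 12.1 and 9.72 in Input, with 0 reads in both IgG libraries. Its log2 fold changes were 2.73 (SE 1.23, limma adjusted p 0.562) and 2.48 (SE 0.28, limma adjusted p 0.0847), called in the pair fit in each line. ANGPTL2, a secreted angiopoietin-like protein, had 13.7 and 25.8 RPM in LNCaP Brg1 and 0 reads in both Input libraries. Against a floor of 3 reads per library that was at least 47.9-fold higher. ANGPTL2 had 0 reads in both LNCaP IgG libraries too, so any minimum level for its LNCaP row was met through Brg1 alone. Its direction there may follow from that and is no support for a difference. CCDC183 and NUTM2E also met the rule in 22Rv1, with Input replicates far apart, at 8.19 and 0 RPM and at 11.7 and 3.18. FAM196A had 44.8 and 57.9 RPM in LNCaP Brg1 against 0.142 and 0.133 in Input, but its 22Rv1 Brg1 replicates were at 52.9 and 0.309. With 1 read in each LNCaP Input library, and 0 and 12 in IgG, its LNCaP row likewise rests mostly on Brg1. None of TMEM204, ANGPTL2, CCDC183, NUTM2E and FAM196A passed in the fit of all groups.

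TEKT4P2, a tektin pseudogene, and DANT2, a noncoding RNA, were among the most read. TEKT4P2 had 470 and 464 RPM in 22Rv1 Brg1 against 205 and 181 in Input and 458, 431 and 143 in IgG, and 1396 and 1697 against 1011 and 848 in LNCaP. DANT2 had 659 and 655 in 22Rv1 Brg1 against 166 and 151 in Input and 566, 622 and 161 in IgG, and 89.2 and 98.6 against 82.8 and 69.1 in LNCaP.

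Few of the genes were lower in Brg1. ACYP1, an acylphosphatase, had 8.90 and 12.6 RPM in 22Rv1 Brg1 against 29.3 and 27.4 in Input, and 5.34 and 5.92 against 14.0 and 14.5 in LNCaP. Its log2 fold changes were -1.34 (SE 0.79, limma adjusted p 0.763) and -1.21 (SE 0.11, limma adjusted p 0.0691), called lower in the pair fit in each line. STAG3L1, a copy of the cohesin gene STAG3, had 112 and 113 RPM in 22Rv1 Brg1 against 207 and 195 in Input, and 108 and 127 against 210 and 162 in LNCaP. MRPS31P4, a copy of a mitochondrial ribosomal protein gene, had 0 reads in both 22Rv1 Brg1 libraries and 10.8 and 10.9 RPM in Input, at least 168-fold lower, yet 2.51 and 4.91 RPM in LNCaP Brg1. FAM157B had 5.5 and 0 RPM in LNCaP Brg1 against 12.3 and 10.5 in Input, and SMG1P6 had 5.65 and 7.65 against 18.7 and 16.4.

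In Sfpq the genes as a group were near Input. The median log2 fold change was -0.18, against -0.72 for genes with both rows, -0.52 for all .primary rows and -0.19 for all rows. It was -0.72 on the deposited scale, -0.04 after TMM scaling, and turned to 0.06 as a share of .primary reads. The libraries did not overlap for 214 genes higher (21.1%) and 433 lower (42.7%) in Sfpq, against 33.2% and 47.3% of all rows. Among all .primary rows these shares were 16.9% and 62.7%. Limma called 0 of the 1013 with all groups in the fit, against 0.0311% of all rows. An unadjusted limma p under 0.05 was reached by 34, beside 1478 of all 22542 rows. By edgeR 0 were called, and by DESeq2 9, all higher, beside 254 higher and 76 lower of all rows. The pair fit called 132 higher and 231 lower, against 25.1% and 36.0% of all rows. The genes higher in Sfpq by the rule were DDTL, a relative of the tautomerase gene DDT, at 119 and 146 RPM against 16.2 and 21.2 in Input, CCDC183, CDK15 and TGFA, none of them past the threshold in the fit of all groups. Those lower, SLC5A4, FAM86EP, CCT6P1 and CBWD4P, did not pass it either and had at most 5.30 RPM in Sfpq.

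Brg1 and Sfpq were compared directly in 22Rv1. The median log2 fold change of Brg1 against Sfpq was 1.28, against 1.01 for genes with both rows and 0.05 for all rows, and 0.31 as a share of .primary reads. Brg1 was higher without overlap for 854 genes (84.3%) and lower for 79 (7.80%), against 44.7% and 42.3% of all rows and 77.9% and 10.3% of genes with both rows. Limma called 15 higher and 6 lower, against 1.52% and 1.27% of all rows. The count was 134, 200 and 198 without IgG replicate A, B or C and 0 without any single Brg1, Input or Sfpq library. Over all rows the fits without IgG replicate A, B or C called 1788, 2619 and 2493 higher and 1675, 2333 and 1880 lower. Among the 15 were GLRA2, ERBB4, SLC22A15 and SLC9A9, the last 2 being transporters at 83.6 and 70.2 RPM against 13.7 and 9.66, and at 169 and 165 RPM against 25.8 and 30.1. LPAR6, a receptor for lysophosphatidic acid, had 20.9 and 14.7 against 3.5 and 3.54. The 6 lower genes were GIMD1, IGSF8, CDK15, TGFA, KCNH5 and PDPK2P.

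In IgG the genes spread both ways. The 22Rv1 median against Input was -0.27, and limma called 16 higher and 90 lower, against 0.382% and 8.74% of all rows. The total of 106 was 259, 184 and 341 without IgG replicate A, B or C, and 42 and 45 without Input replicate A or B. Over all rows the fits without an IgG library called 558, 488 and 1454 higher and 4392, 3044 and 5980 lower. Those without an Input library called 23 and 22 higher and 946 and 1015 lower. Depth limits the lower calls: 70 of the 90 had at most 3 reads in every IgG library, and 46 had an Input level above the floor of 3 reads in each, which is 0.678, 1.71 and 6.11 RPM. TRIM74, with 0 reads in all 3 IgG libraries and 8.5 and 15.3 RPM in Input, was at least 4.19-fold lower. ACYP1, SNAI3 and NPIPB6 were also called lower, with 0 to 3.39 RPM in IgG, and lost the call without either Input replicate.

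In LNCaP limma called 129 of the genes higher and 373 lower in IgG, against 3.14% and 44.0% of all rows. All 373 had 0 reads in both IgG libraries and an Input level under the floor of each, 135 and 64.8 RPM, so at this depth they cannot be shown to be lower. UMAD1, WDSUB1, TMEM267 and MICU3 are examples, with Input means of 30.4 to 56.3 RPM. By edgeR the counts were 272 higher and 0 lower, beside 1341 and 93 of all rows. Without IgG replicate A limma called 962 in all, beside 4348 higher and 14547 lower of all rows. Without IgG replicate B it called 1003, beside 4656 and 15759.

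The 16 genes called higher in IgG of 22Rv1 ranged in log2 fold change from 1.27 for ST6GALNAC3 to 6.64 for C19orf18. C19orf18 had 129, 155 and 108 RPM in IgG, 0.146 and 0.499 in Input and 0.715 and 1.30 in Brg1, and SCGN, which encodes the calcium sensor secretagogin, had 143, 69.7 and 116 RPM in IgG and 1.15 and 1.62 in Input. Their log2 fold changes were 6.64 (SE 0.61, limma adjusted p 0.000957) and 5.48 (SE 0.75, limma adjusted p 0.00239). SCGN lost the call without either Input replicate. In 22Rv1 C19orf18 had 570, 272 and 53 reads in IgG, 7 and 8 in Input, 34 and 59 in Brg1 and 1 and 4 in Sfpq. SCGN had 631, 122 and 57 in IgG, 55 and 26 in Input, 90 and 102 in Brg1 and 13 and 17 in Sfpq. Both 22Rv1 rows may thus have met a read minimum mostly through IgG. Their direction there may follow from that and is no support for a difference. In LNCaP IgG C19orf18 stood at 3155 and 1793 RPM and SCGN at 2660 and 1188, against 7.09 and 7.33 and 2.98 and 1.33 in Input. TMEM150C had 992 and 1166 RPM in LNCaP IgG and 1.56 and 1.47 in Input. On the deposited scale, on which IgG values are far smaller, all 3 were lower than Input in LNCaP, and SCGN was lower in 22Rv1 too.

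Against IgG, Brg1 gave 121 of the genes higher and 10 lower in 22Rv1 (limma, against 8.65% and 0.954% of all rows), with a median log2 fold change of 1.26. The libraries did not overlap for 325 higher (32.1%) and 25 lower (2.47%), against 24.9% and 7.15% of all rows and 34.2% and 2.87% of all .primary rows, so the shares were close to those of .primary rows in general. With only the 2 groups, edgeR called 0. The total of 131 was 355, 205 and 287 without IgG replicate A, B or C, and 73 and 74 without Brg1 replicate A or B. Over all rows the fits without an IgG library called 5004, 3384 and 5347 higher and 1481, 1218 and 893 lower. Those without a Brg1 library called 917 and 898 higher and 41 and 42 lower. The 10 lower were C19orf18, GIMD1, CDK15, IGSF8, SCGN, TGFA, KCNH5, COX7B2, MRPS31P4 and RTN4RL1. MRPS31P4 had 0 reads in Brg1, and the other 9 were all among the 16 called higher in IgG than in Input. In LNCaP limma called 375 higher and 108 lower, against 44.1% and 2.72% of all rows. By edgeR these were 1 and 230, beside 116 and 1212 of all rows. Without IgG replicate A limma called 937 in all, beside 14544 higher and 4475 lower of all rows. Without IgG replicate B it called 983, beside 15862 and 4451. No direction of the whole group can thus be read there.

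TGFA and 4 of the other genes went up and down together across the 15 libraries. TGFA encodes transforming growth factor alpha, a ligand of the EGF receptor. In 22Rv1 its row had 39.6 and 35.5 RPM in Brg1, 46.2 and 54.4 in Input, 356 and 322 in Sfpq and 737, 1064 and 2958 in IgG. In LNCaP it had 707 and 587 in Brg1, 595 and 624 in Input and 2705 and 2830 in IgG. Sfpq and IgG of 22Rv1 were above Input without overlap, and LNCaP Brg1 and Input were alike. The highest library was 83.4-fold above the lowest.

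The Pearson correlation with TGFA over 15 libraries, on log2 of RPM plus 1, was 0.996 for CDK15, a cyclin-dependent kinase family member, and 0.994 for GIMD1, a predicted GTPase. It was 0.993 for KCNH5, a potassium channel of the ether-a-go-go family, and 0.988 for IGSF8, an immunoglobulin superfamily membrane protein. The next of the 1013 genes, C19orf18, was at 0.81. Per library, reads on KCNH5 were 0.763 to 1.38 times those on TGFA, on IGSF8 0.55 to 1.34 times, on GIMD1 0.395 to 0.951 times and on CDK15 0.412 to 0.924 times. Among 19400 rows present in both lines, 13 reached 0.95, all of them .primary rows. The next row, the plain row of LENG8, was at 0.944 (Spearman 0.986), so the lack of plain rows depends on that cut. Of the 13 rows, the 8 that are not among the 1013 were AC091045.1, AC005323.2, PCDH10, LINC01374, AC104009.1, CNTNAP3, AL357153.2 and ELOVL6. These genes were picked for this likeness after their values were seen, and the 15 libraries share antibody and depth groups, so it is a description only.

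Together the 5 genes took 0.0138% and 0.0146% of all reads in 22Rv1 Brg1, 0.0218% and 0.0245% in Input, 0.135% and 0.136% in Sfpq and 0.283%, 0.566% and 1.09% in IgG. In LNCaP they took 0.271% and 0.226% in Brg1, 0.238% and 0.259% in Input and 1.15% and 1.22% in IgG. In 22Rv1 the 3 IgG libraries, the shallowest, had the largest shares and the 2 Brg1 libraries, among the deepest, the smallest, and the part of depth in this was not tested. Against Input in 22Rv1 IgG the log2 fold change was 4.69 for TGFA (limma adjusted p 0.0011), 4.68 for KCNH5 (0.00101), 5.04 for CDK15 (0.00106), 4.65 for GIMD1 (0.00106) and 3.98 for IGSF8 (0.00136). Brg1 was lower than Sfpq for all 5, from -3.01 for KCNH5 (limma adjusted p 0.0354) to -3.69 for GIMD1 (limma adjusted p 0.0272). On the deposited scale TGFA and CDK15 were lower in 22Rv1 IgG than in Input. The 5 genes lie on 4 chromosomes, and the promoter windows printed above shared no run longer than 13 bases.

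**Figure D5:**
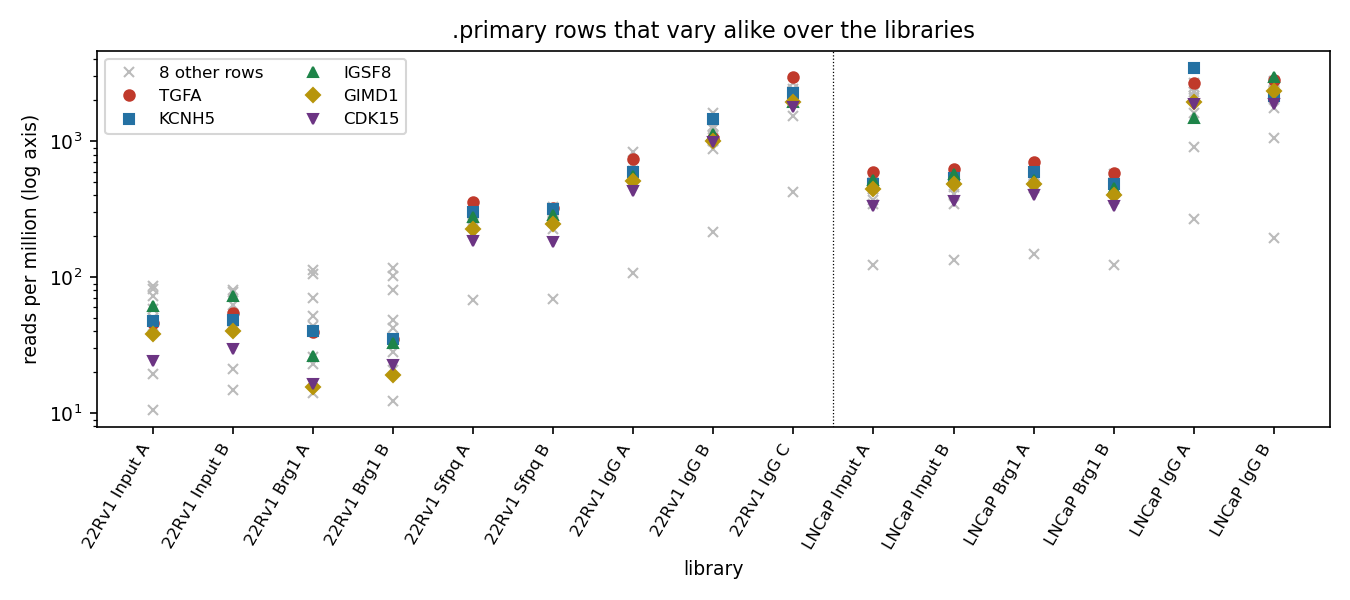
RPM (y, log scale) in each of the 15 libraries (x) for TGFA, KCNH5, IGSF8, GIMD1 and CDK15, with crosses for 8 other .primary rows correlated at 0.95 or more with TGFA, and a dotted line between the cell lines. The markers move up and down together, TGFA from 35.5 in a 22Rv1 Brg1 library to 2958 in IgG replicate C.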

How the data were processed

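The genes and lists were chosen with earlier results of these data known. Per the submitters' processing notes, hg38, STAR 2.6, Salmon 0.8.2, deepTools 2.5.2 and DESeq2 were used, with no roles given. What the authors deposited is a signal, called normalized counts by the name of each table. In every library each value was a whole multiple, within 0.001 read, of the smallest positive value, so 100% came out whole and reads were recovered by dividing by it. How the authors scaled the libraries or set a row minimum is not given in the sources used here.

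Reads were scaled to RPM and tested as log2 of that value plus 1 with limma 3.58.1 in R 4.3.3 (lmFit, eBayes with trend), on all 22542 rows of 22Rv1 and 22169 of LNCaP, no filter, all groups of a line in a fit. Calls are at a Benjamini-Hochberg adjusted p under 0.05 over all rows. edgeR 4.0.16 and DESeq2 1.42.0 ran on recovered reads as alternatives. Only limma with all groups, for Brg1 against Input in 22Rv1, was checked on simulated data. There every library had the same spread, unlike the shallow IgG libraries, and the other tests were not checked this way. The floor is 3 reads per library and covers counting error only.

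Named genes were the 12 highest in Input over both lines, up to 4 per direction in each antibody against Input comparison by fold change, with at least 10 reads in every library of a group and no overlap, filled with genes not past the threshold, and the 2 highest in Input per list of at least 3 genes. Other genes named were chosen after their values were seen. A gene that the rule names is not reported here. Alternatives used a pseudocount of 0.1 or 5, only rows averaging 1 RPM or more, deposited, TMM and .primary-share scaling, pair fits, the replicate block and leaving out each library. Fits without IgG, edgeR on pairs and the crossed block were added after seeing the data. Positions and sequences are from RefSeq (GRCh38.p14).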

Additional observations from a re-analysis of the deposited data

Results flagged for a closer look

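BMS1P14, a transcribed pseudogene with near-identical copies, went opposite ways in Brg1 against Input, at 0.78 in 22Rv1 and -0.69 in LNCaP on the log2 scale, with no overlap of libraries in either line. The difference between the lines was not tested. It had 263 and 228 RPM in 22Rv1 Brg1 and 155 and 130 in Input, and 522 and 558 against 956 and 797 in LNCaP.

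MICU3, a regulator of mitochondrial calcium uptake, and FGF12 went opposite ways in IgG against Input, at 1.08 in 22Rv1 and -4.94 in LNCaP for MICU3 and at 1.05 and -4.03 for FGF12. These differences were not tested. Both genes had 0 reads in the LNCaP IgG libraries, whose floor lies above their Input level, so the LNCaP values show no direction at this depth.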

How the results depend on the processing

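Counts below are of the 1013 genes called, as totals, and the calls over all rows moved with the settings too. In IgG against Input of 22Rv1 the deposited scaling called 1 higher and 22492 lower of all 22542 rows. In Brg1 against Input of LNCaP it called 46 higher and 16433 lower of all 22169 rows. The pair fit of Brg1 against Input in 22Rv1 called 6604 higher and 9510 lower of all rows. A count below is thus by itself no result about the 1013 genes. For Brg1 against Input in 22Rv1 (0 called), a pseudocount of 5 gave 3, the deposited scaling 1, the replicate block 15, DESeq2 18, the pair fit 799, edgeR on the pair 836 and a fit without IgG 784, and leaving out a library gave 0 to 77. For Sfpq against Input (0), DESeq2 gave 9, the pair fit 363, edgeR on the pair 337, no IgG 384 and the replicate block 0, and leaving out a library 0 to 1. For IgG against Input in 22Rv1 (106), a pseudocount of 0.1 gave 61, the deposited scaling 1006, edgeR with TMM 58, DESeq2 182, edgeR on the pair 0 and the replicate block 296, and leaving out a library 42 to 341. For Brg1 against IgG (131) the counts were 71, 1007, 84 in the pair fit, 0 by edgeR on the pair and 249 with the replicate block, and 73 to 355. For Brg1 against Sfpq (21), pseudocounts of 0.1 and 5 gave 12 and 56, the deposited scaling 2, TMM 12, .primary share 1, the pair fit 868, the replicate block 105, edgeR 0 by library size and 6 with TMM, DESeq2 46, edgeR on the pair 874 and no IgG 874, and leaving out a library 0 to 200.

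For Brg1 against Input in LNCaP (1), a pseudocount of 0.1 gave 2, the deposited scaling 361 (8 higher, 353 lower), .primary share 18, the pair fit 384, the replicate block 0, edgeR 269 by library size and 303 with TMM, DESeq2 289 and edgeR on the pair 445, and leaving out a library 0 to 424. For IgG against Input there (502), the deposited scaling gave 1007, edgeR 272 by library size and 224 with TMM, DESeq2 264, edgeR on the pair 202 and the replicate block 478, and leaving out a library 419 to 1003. For Brg1 against IgG (483) the counts were 1009, 231, 185, 230, 138 and 453 in that order, and 415 to 983. Where a fit changed a count, the cause was not tested.

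The deposited scaling reversed IgG against Input for SCGN (-1.40), CDK15 (-2.61) and TGFA (-2.98) in 22Rv1 and for SCGN (-1.15), TMEM150C (-1.45), FAM81B (-1.98) and C19orf18 (-2.58) in LNCaP. Among the values of single genes and groups, 639 kept direction and side of the threshold, 82 passed it, 37 lost it and 3 moved. Whether replicate letters pair libraries cannot be told from the values. With 2 libraries in each group, crossing the letters only turns the sign of a correlation of deviations. Same-letter values were -0.354 for Brg1 and Input in LNCaP, and -0.146 for Sfpq and 0.0152 for Brg1 with Input in 22Rv1. With the Input letters crossed for Brg1 in LNCaP and Sfpq in 22Rv1, and only the 2 groups compared in the fit, the block gave 527 and 398 calls. The crossing was chosen after these correlations were seen, so its counts are no evidence on how libraries pair. The pair fits without a block gave 384 and 363, so these counts are not to be set against the block with all groups. Depth limits IgG most, with a median of 0 and 1 reads per gene in LNCaP.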
